A study of Caenorhabditis elegans with 2 samples.

Results

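The genes described here encode enzymes and subunits that methylate lysine 4 of histone H3 (H3K4), a demethylase of another lysine that works with them, and the pair of enzymes that add and remove O-linked N-acetylglucosamine (O-GlcNAc). They number 9, of 19973 nuclear protein-coding genes in the annotation: set-2 and set-16, ash-2, wdr-5.1, rbbp-5 and dpy-30, utx-1, and ogt-1 and oga-1. They were chosen by their pathway with the ranks of this experiment's regions already known, so the ranks and counts below are descriptions and carry no test. The experiment was a chromatin immunoprecipitation with sequencing of eGFP-tagged NHR-76, a nuclear hormone receptor, in whole L4 larvae of Caenorhabditis elegans. The larvae were not separated by sex. All worms were of strain OP203, which carries the unc-119(ed3) III allele and the transgene insertion wgIs203, and there was 1 group of 2 biological replicates. The tag sits on a transgene copy, and the labels name both an eGFP fusion and NHR-76 as the target of the antibody. The age of the larvae is not given beyond the stage. In whole larvae a region bound in few cells and one bound weakly in many cannot be told apart. Worms without the tag and input DNA were not analysed here.

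H3K4 methylation is laid down in animals by complexes of the COMPASS family, in which a SET-domain enzyme works with a shared core of small subunits, and it marks the chromatin of active promoters and enhancers. In C. elegans these enzymes act in the germ line, in development and in fat storage. O-GlcNAc is a sugar put on serine and threonine of nuclear and cytosolic proteins from UDP-GlcNAc, the end product of the hexosamine pathway, and worms without the enzymes of this cycle store fat and carbohydrate differently.

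Regions were taken from 4 deposited lists on the ce11 build: 319 called peaks, 13052 regions of the pooled replicates, 26700 regions of replicate 1 and 24791 of replicate 2. The pooled and replicate lists hold background regions beside peaks. Each region has a deposited signal value of unstated scale, so it served only to rank regions within a list, rank 1 being the strongest. A region belonged to a gene when its summit lay in the gene window, from 2000 bp upstream of the annotated 5′ end to the 3′ end. The lists were used as supplied, and whether they are complete is not known, so a gene without a region is one with none in the rows used here. Since no read counts were used, the depth behind each rank is unknown.

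Of the 9 genes, set-16 and ogt-1 had a called summit in the window, where 321 of all nuclear protein-coding genes did (1.61%). Both called summits lay just upstream of the gene. ash-2 had a strong region in the pooled list and in both replicates at the start of its coding transcripts, but no called peak. oga-1 had a region upstream of its 5′ end in both replicates and none in the pooled or called list. The other 5 genes had weak regions only, regions of a single replicate, or no region.

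**Figure D1:**
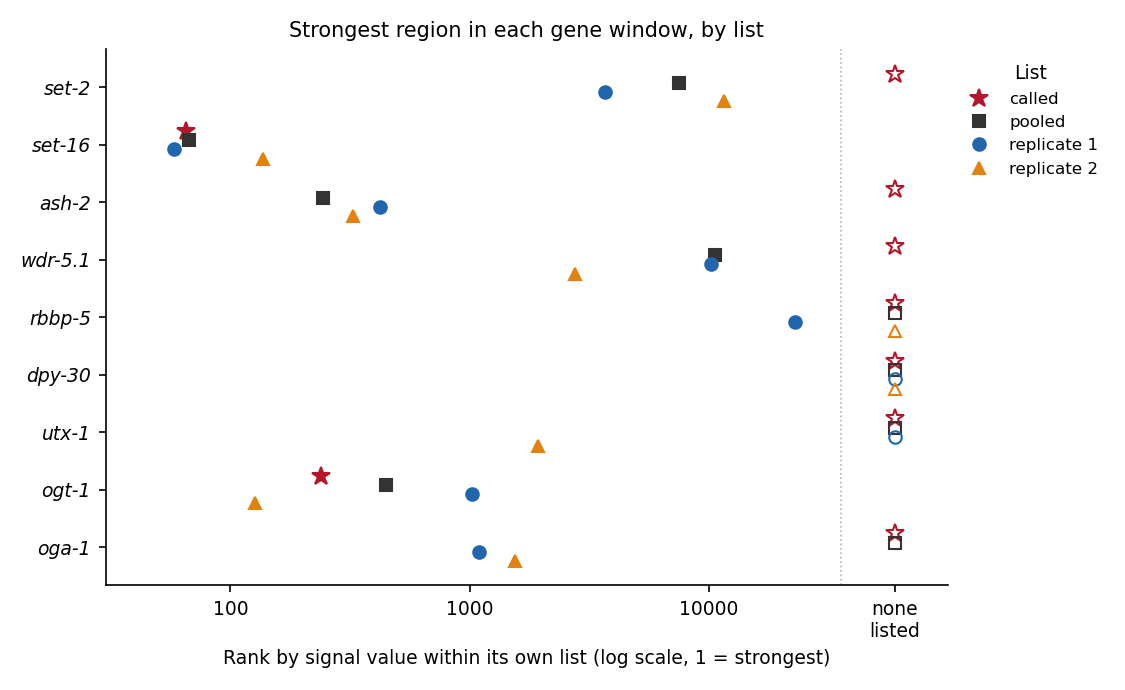
Rank of the strongest region in the window of each of the 9 genes, in each of the 4 lists, on a log axis where 1 is the strongest; open symbols at the right mark a list with no summit in the window. The symbols of set-16 lie together between ranks 58 and 137, those of ogt-1 spread from 127 to 1026, and dpy-30 has only open symbols.

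The sequences at the strongest summits of the genes that ranked high in both replicates are shown because they hold the bases under these regions. Each runs 5′ to 3′ on the strand of its gene and is read from the NCBI copy of WBcel235, which is ce11. The set-16 window is chrIII:13643597-13643796 (plus strand) and the ogt-1 window chrIII:7153908-7154107 (minus strand), both of 200 bp around the called summit. The oga-1 window, chrX:9347693-9347892 (minus strand), is centred on the replicate 1 summit. The ash-2 window, chrII:11980246-11980425 (plus strand), is centred on the pooled summit and was shortened to 180 bp where a 5′ UTR begins. Capitals mark matches, on either strand, to the elements searched: the E-box CACGTG, the nuclear receptor elements AGGTCA and also AAGTCA, the element AGTGCA of the DAF-12 receptor type, the repeat GAGAGA, and GAGACG with its longer form GAGACGCAG. The last pair was searched for after these windows had been read.
set-16: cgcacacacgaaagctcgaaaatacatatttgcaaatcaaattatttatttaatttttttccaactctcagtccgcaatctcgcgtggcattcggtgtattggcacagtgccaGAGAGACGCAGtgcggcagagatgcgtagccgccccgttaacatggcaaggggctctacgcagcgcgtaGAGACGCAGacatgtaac
ogt-1: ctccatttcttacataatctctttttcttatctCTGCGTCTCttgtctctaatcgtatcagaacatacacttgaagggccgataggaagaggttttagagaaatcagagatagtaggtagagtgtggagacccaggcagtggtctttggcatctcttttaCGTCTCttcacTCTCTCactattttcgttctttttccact
oga-1: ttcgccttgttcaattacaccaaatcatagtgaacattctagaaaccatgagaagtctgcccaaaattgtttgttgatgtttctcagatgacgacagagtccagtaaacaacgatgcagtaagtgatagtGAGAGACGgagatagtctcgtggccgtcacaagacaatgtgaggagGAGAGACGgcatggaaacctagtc
ash-2: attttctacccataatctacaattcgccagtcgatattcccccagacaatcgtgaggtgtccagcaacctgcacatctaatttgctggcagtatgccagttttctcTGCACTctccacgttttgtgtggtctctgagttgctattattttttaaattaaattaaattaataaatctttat

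GAGACGCAG stood at bases 116 to 124 and 183 to 191 of the set-16 window, and in the other orientation at bases 34 to 42 of the ogt-1 window. The shorter GAGACG, which it contains, was also found at bases 161 to 166 of the ogt-1 window and at 133 to 138 and 179 to 184 of the oga-1 window. GAGAGA occurred at bases 114 to 119 at set-16, 172 to 177 at ogt-1, and 131 to 136 and 177 to 182 at oga-1, overlapping GAGACG by its last bases at set-16 and at both places in oga-1. The ash-2 window held the single match AGTGCA, at bases 107 to 112. No E-box (CACGTG) and neither AGGTCA nor AAGTCA was among the letters of the 4 windows.

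Such matches were also found elsewhere in the genome. GAGAGA was present in 43.4% of the 200 bp windows at the 288 nuclear called summits and in 15.5% of those at the 13022 nuclear pooled summits, and it stood in 16.3% of the 200 bp stretches before the 5′ ends of nuclear protein-coding genes. For GAGACG these shares were 30.2%, 7.61% and 7.56%, and for GAGACGCAG 14.6%, 2.53% and 2.34%. AGTGCA stood in 6.94%, 6.63% and 6.31%. For the elements absent from the windows shown, the shares in the same order were 15.97%, 4.1% and 4.22% for CACGTG. They were 6.94%, 4.59% and 5.93% for AGGTCA, and 10.76%, 8.78% and 8.99% for AAGTCA. The E-box was thus more frequent at called summits than in the other sets. At such shares, absence from so few windows says little. The GC content was 49.0% in the set-16 window, 41.0% at ogt-1, 44.0% at oga-1 and 37.2% at ash-2, against means of 42.0% over nuclear called and 33.3% over nuclear pooled windows. A match is a stretch of letters, and nothing about a factor follows from it or from its absence.

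Among the methyltransferase genes, set-16 and set-2 lay far apart in rank. set-16 (WBGene00011729, chromosome III, 13643916 to 13656637, plus strand) encodes the worm counterpart of the mammalian MLL3 and MLL4 enzymes. Its peak, at 13643512 to 13643881, ranked 65 in the called list with a signal value of 120.0, and the same interval ranked 67 in the pooled list with 113. In replicate 1 it ranked 58 with a signal value of 73.2, and in replicate 2 it ranked 137 with 35.6. The summits of the 4 lists lay between 218 and 222 bp upstream of the 5′ end, so the position hardly differed between the replicates. By the strongest pooled summit in the window, set-16 came 45th of all nuclear protein-coding genes. It shares this place with its neighbours drr-2 and T12D8.10, whose windows take in the same summit.

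The set-16 peak sits in a divergent promoter. The called summit, at 13643697, lay 127 bp upstream of drr-2 on the minus strand, nearer than the 219 bp to set-16, and outside the exons and introns of either. drr-2 encodes an RNA-binding protein related to the translation factor eIF4H. The window of T12D8.10, which lies behind drr-2 on the minus strand, took in the same summit at 1370 bp. The lists cannot assign the peak to either gene of the pair. With every summit given to the nearest 5′ end alone, drr-2 would hold it and ogt-1 would be the only gene of the 9 with a called summit. The genes closest to set-16 in log10 ranks over replicate 1, replicate 2 and the pooled list were drr-2 and T12D8.10, which share its region, and then H41C03.3 (ranks 52, 141 and 71, at a distance of 0.055), among 6896 genes with a region in all 3 lists.

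Inside the set-16 gene only low-ranked regions were listed. The pooled list had summits in introns at 1061 and 9901 bp from the 5′ end, at ranks 9755 and 10014. Replicate 1 also had a summit at 9901 bp, at rank 3613, where replicate 2 had none within 200 bp. The other intragenic regions of the replicates ranked between 9823 and 25994.

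set-2 (WBGene00004782, chromosome III, 4922427 to 4930204, minus strand) encodes the SET1-type enzyme, the main enzyme of H3K4 trimethylation in the worm. It had no called summit, and the nearest one lay 30.3 kb from its 5′ end. Its strongest region in the pooled list ranked 7508 (signal value 18.3), in an intron 890 bp downstream of the 5′ end. Replicate 1 listed that place at rank 3693, while the only region of replicate 2 ranked 11621 and lay in a coding exon at 3022 bp. No summit of set-2 in replicate 1 had a summit of replicate 2 within 200 bp.

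ash-2 led the genes of the shared core. ash-2 (WBGene00012458, chromosome II, 11979838 to 11989050, plus strand) encodes a subunit that, with the others of the core, supports the SET-domain enzymes. Its strongest region, at 11980161 to 11980530, ranked 243 in the pooled list (signal value 60.5), 421 in replicate 1 (30.4) and 324 in replicate 2 (25.5). The replicate summits lay 14 bp apart. The summit falls 508 bp inside the gene as annotated, since a noncoding transcript starts there, and 80 to 119 bp upstream of the 5′ ends of the 4 protein-coding transcripts. Measured from the coding transcripts, the ash-2 summit lies upstream, as do those of set-16 and ogt-1. By the 5′ ends of whole genes the nearest was not ash-2 but its neighbour on the minus strand, Y17G7B.20, at 502 bp, so the summit lies between that 5′ end and the coding 5′ ends of ash-2.

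This ash-2 region was not among the called peaks, and the nearest called summit lay 12.1 kb from the gene's 5′ end. The pooled region at ogt-1 ranked lower, at 446, and was called. Of the 319 strongest pooled regions, 54 had no called summit within 200 bp, 52 of them nuclear, and the ash-2 region was the 15th strongest of all pooled regions without one. The lower of its replicate ranks was 421, and 105 called peaks had a lower rank than that in at least 1 replicate or no summit there. Its deposited -log10 q-value, 2.98 in the pooled list, equalled that of set-16 and ogt-1 there, a value that 475 pooled regions share. The authors' step from the region lists to the called peaks used the irreproducible discovery rate (IDR), with no threshold stated.

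A further ash-2 region lay 1829 bp upstream, over a UTR exon of Y17G7B.20. It ranked 1417 in the pooled list, 3028 in replicate 1 and 556 in replicate 2, with replicate summits 73 bp apart. Weaker regions followed along the gene, and ash-2 had 5 regions in the pooled list, more than any other of the 9 genes. Their density, 0.446 per kb of window, was below the 0.571 of wdr-5.1, whose 2 pooled regions lay in a much shorter window.

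**Figure D2:**
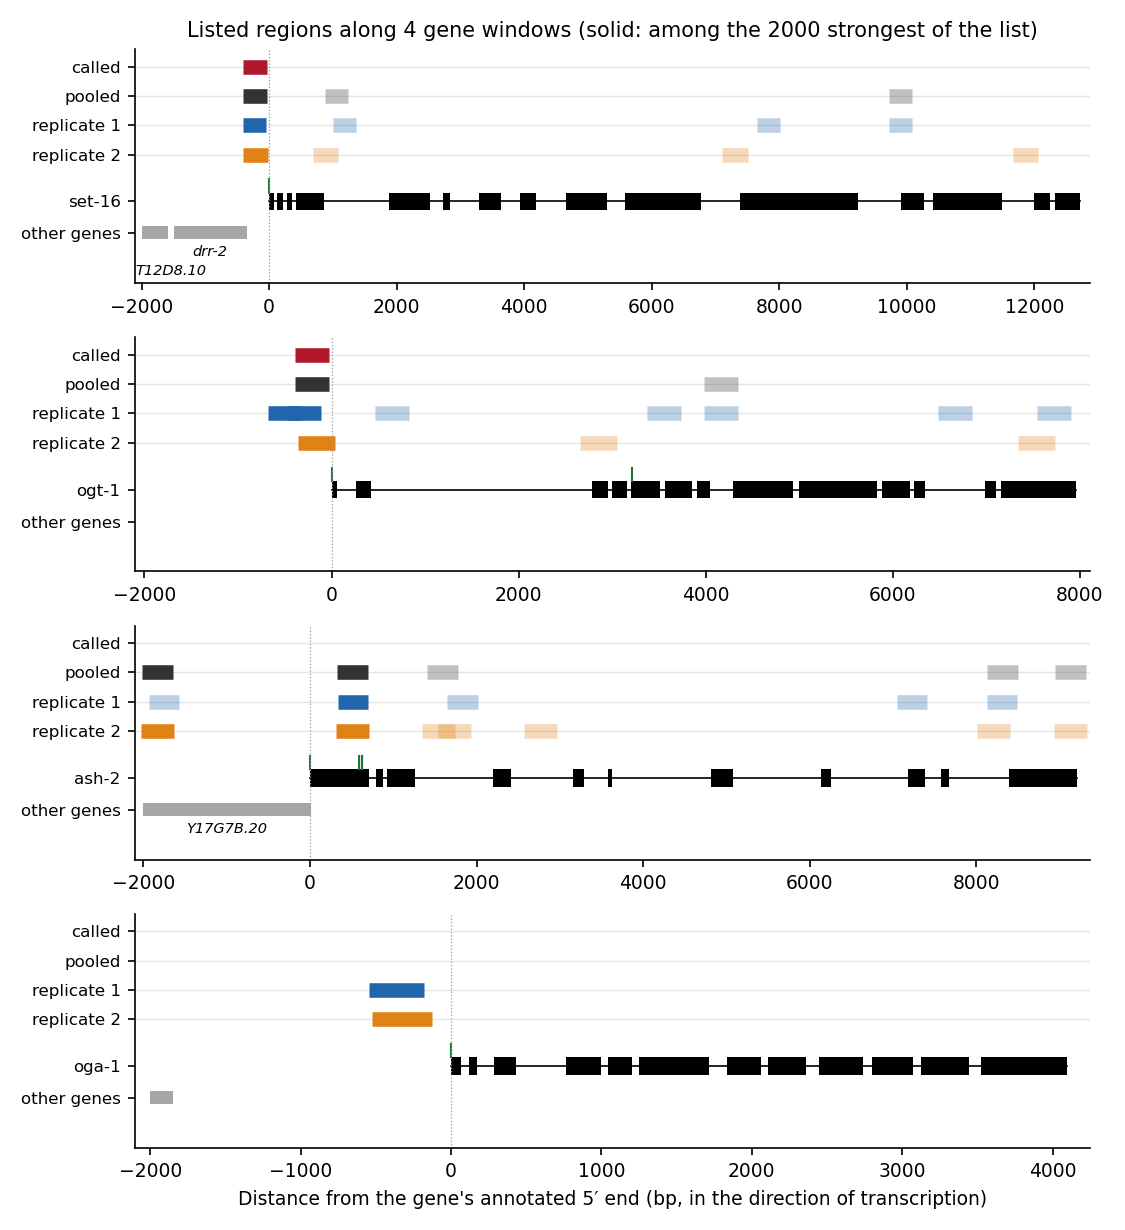
Regions of the 4 lists along set-16, ogt-1, ash-2 and oga-1, with distance from the annotated 5′ end in bp on the x axis; coloured bars are regions (solid where among the 2000 strongest of their list, pale otherwise), black boxes exons, green ticks the 5′ ends of transcripts and grey boxes neighbouring genes, on an x scale of its own in each panel. The regions stack upstream of set-16, ogt-1 and oga-1 and at the coding 5′ ends of ash-2, and oga-1 has none in the called and pooled rows.

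The remaining core genes had no strong region. wdr-5.1 (WBGene00006474, chromosome III, 3705285 to 3706784, plus strand), which encodes the WD40 subunit, had pooled regions at ranks 10617 and 11249, both nearer to the 5′ end of C14B1.3 than to its own. In replicate 2 a summit 261 bp upstream of wdr-5.1, in a UTR exon of C14B1.3, ranked 2767, and replicate 1 had no summit within 200 bp of it. The replicates did share a place 1771 to 1792 bp upstream, beside the 5′ end of C14B1.3, at ranks 14865 in replicate 1 and 6501 in replicate 2. rbbp-5 (WBGene00017683, chromosome II, 6097830 to 6099645, plus strand), a further WD40 subunit, had a single region at rank 23050 of replicate 1, at its 3′ end. dpy-30 (WBGene00001088, chromosome V, 12191519 to 12192385, plus strand), a small subunit that also acts in dosage compensation, had no summit of any list in its window. The nearest summit of any list lay 1224 bp from its 5′ end, beyond its 3′ end, and the nearest called summit 100.3 kb away. Its window, 2.87 kb, was the shortest of the 9.

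utx-1 (WBGene00017046, chromosome X, 8557146 to 8563238, plus strand) encodes a demethylase of lysine 27 of histone H3 that works with the SET-16 complex. Replicate 2 listed it at rank 1939, in an intron 2198 bp from the 5′ end, and at rank 3320, 715 bp upstream. Replicate 1 and the pooled list had no summit in its window. A called summit lay 6.8 kb from the 5′ end, outside the window.

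The O-GlcNAc genes both had a region just upstream of the 5′ end. ogt-1 (WBGene00003858, chromosome III, 7145842 to 7153797, minus strand) encodes the O-GlcNAc transferase, which adds the sugar. Its peak, at 7153823 to 7154192, ranked 240 in the called list (signal value 66.0, where the lowest called value was 58.1) and 446 in the pooled list (48.4). It ranked 1026 in replicate 1 (signal value 21.9) and 127 in replicate 2 (36.1). The replicates thus placed it much further apart than they did set-16 or ash-2, and 40 of the 319 called peaks ranked 1026 or lower in a replicate or had no summit there.

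The summit at ogt-1 also differed between the replicates in position. It lay 211 bp upstream in the called and pooled lists, 296 bp upstream in replicate 1 and 161 bp upstream in replicate 2, a gap of 135 bp. Replicate 1 split the place into a further region 498 bp upstream, at rank 1876, which overlaps its stronger neighbour. The 5′ end of ogt-1 was the nearest of any protein-coding gene, and no other protein-coding gene's window took in the called summit. A shorter transcript of ogt-1 starts 3207 bp inside the gene, and none of the regions near it ranked within the 2000 strongest of any list.

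oga-1 (WBGene00020596, chromosome X, 9343333 to 9347430, minus strand) encodes the O-GlcNAcase, which removes the sugar. Replicate 1 had a summit 363 bp upstream at rank 1096 (signal value 21.4) and replicate 2 had one 324 bp upstream at rank 1557 (15.5), 39 bp apart. These were the only listed regions of oga-1. Neither the pooled nor the called list as used here had a summit in its window, and the nearest pooled summit lay 4869 bp from that of replicate 1. The ogt-1 region of replicate 1 ranked 1026, close to the 1096 of oga-1, while in replicate 2 the ranks were 127 and 1557.

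Set beside all nuclear protein-coding genes, the 9 genes had 5 with a pooled summit in the window, set-2, set-16, ash-2, wdr-5.1 and ogt-1, where 41.1% of all genes did. Summits of the replicates within 200 bp of each other were found at 5, set-16, ash-2, wdr-5.1, ogt-1 and oga-1, against 26.9% of all genes. Within the 1000 strongest regions of both replicates this left set-16 and ash-2, against 2.32% of all genes, and ogt-1 missed that limit in replicate 1. With ranks taken among nuclear regions only, ogt-1 was within that limit in both replicates. A summit of any list stood in the windows of 8 of the 9, dpy-30 being the exception, and in 77.8% of all windows. None of these shares was matched for window length, and 6 of the 9 genes fall in the longest of 4 length groups. A difference from the shares therefore cannot be read apart from window length. The 9 windows held 13 pooled summits in 70.0 kb, or 0.186 per kb, and the windows of all nuclear protein-coding genes held 0.130 per kb, where windows of neighbouring genes overlap and a summit can count for several genes.

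**Figure D3:**
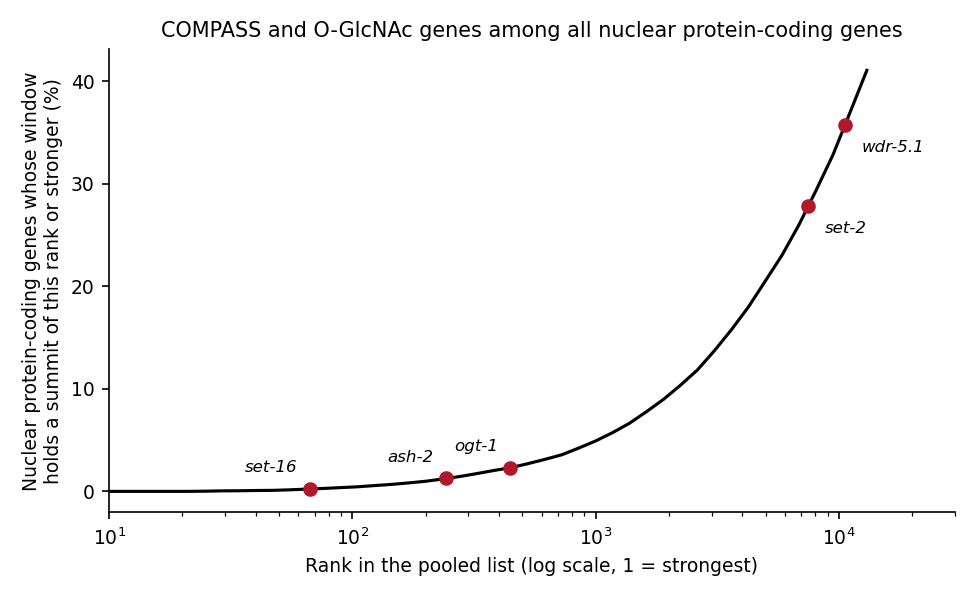
The curve gives the percentage of nuclear protein-coding genes whose window holds a pooled summit of a given rank or stronger, with pooled rank on a log x axis; red points mark the 5 genes of the 9 with a pooled region. set-16, ash-2 and ogt-1 lie on the low left part of the curve at ranks 67, 243 and 446. set-2 and wdr-5.1 lie on its steep right part, at ranks 7508 and 10617.

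With all nuclear protein-coding genes split into 4 equal groups by window length, 6 of the 9 fall in the group with the longest windows, from 5634 bp upwards. In that group 2.52% of all genes had a called summit, and set-16 and ogt-1 were the 2 of these 6. The shares in the groups with shorter windows were 1.2%, 1.08% and 1.62%, from the shortest upwards. dpy-30 fell in the group with the shortest windows, wdr-5.1 and rbbp-5 in the next, and none had a called summit. The called summits of set-16 and ogt-1 lay within 219 bp of the 5′ ends. Both were also counted in a promoter window alone, where the share of all nuclear protein-coding genes was 0.991%. The part of window length in these counts was not tested.

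**Figure D4:**
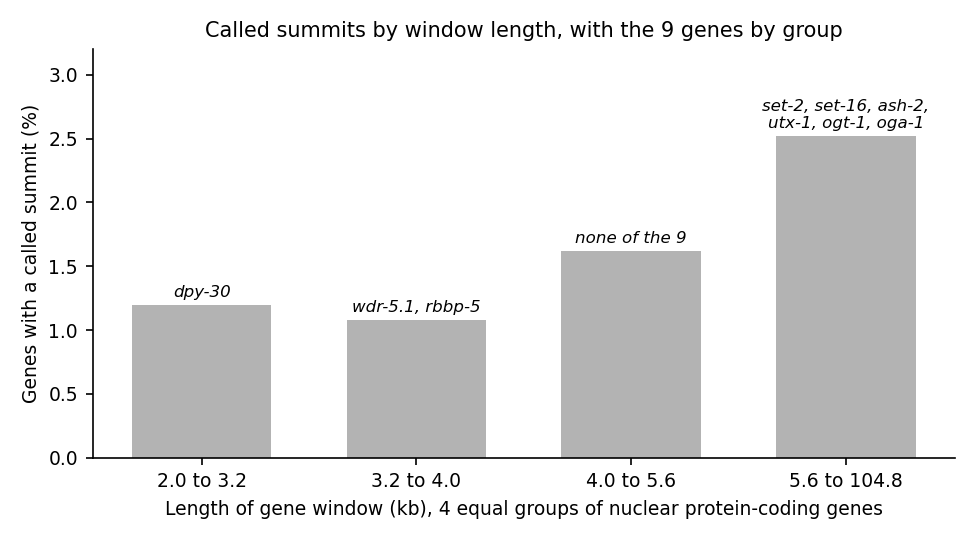
Bars give the percentage of nuclear protein-coding genes with a called summit in the gene window, for 4 equal groups of genes by window length in kb, and the names above each bar are those of the 9 genes that fall in it. The bar of the longest windows is the tallest, at 2.52%, and it holds set-16 and ogt-1.

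Further genes of these pathways were counted in 3 gene lists. None had a called summit, which at a share of 1.61% over all genes is near the background for lists of this size. Of 17 genes listed with H3K4 methylation, among them set-1, whose enzyme acts on histone H4, 10 had a pooled region and 4 had summits of both replicates within 200 bp, and none reached the 1000 strongest of both, beside the shares of 41.1%, 26.9% and 2.32% of all genes given above. Windows in the 3 lists ran from 2.5 kb (gna-1) to 20.54 kb (dot-1.1), and the shares of all genes were not matched for window length. The genes named here from this and the next lists were picked after their values were seen. cfp-1, the CXXC subunit that belongs to the SET-2 complex, ranked 1982 in the pooled list, 1524 in replicate 1 and 19515 in replicate 2. jmjd-1.2, a demethylase that reads methylated H3K4, ranked 563, 411 and 2623 in the same order, and lin-59, related to ash1 of Drosophila, ranked 749, 1014 and 1089. hcf-1, whose mammalian counterpart is a target of the O-GlcNAc transferase, had no pooled region and ranked 20803 in replicate 1 and 8010 in replicate 2. The windows of swd-2.1 and swd-2.2, of the same gene list, took in that replicate 1 region too.

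Of 16 other histone lysine methylation and demethylation genes, 8 had a pooled region, and 7 had summits of both replicates within 200 bp, beside the same 41.1% and 26.9% of all genes. None of them, and none of the hexosamine genes below, reached the 1000 strongest of both replicates, beside 2.32% of all genes. mes-6, which encodes a subunit of the worm's Polycomb complex, ranked 667 in the pooled list, 1362 in replicate 1 and 523 in replicate 2. Of 6 genes of hexosamine and UDP-GlcNAc synthesis, 3 had a pooled region and 3 had summits of both replicates within 200 bp, beside the same shares, and so few genes allow no reading of the difference. gfat-1, the enzyme that commits sugar to this pathway, ranked 2834 in the pooled list, 20506 in replicate 1 and 1525 in replicate 2, and gfat-2, gna-1 and C36A4.4 had no region in any list.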

How the data were processed

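The genes and gene lists were chosen with earlier results of these data known. Per the labels, regions of a replicate were derived from its own alignment and an additional file, pooled regions from both alignments and the same file, and called peaks from all of these by IDR. Aligner and peak caller: not given in the sources used here. The deposited signal value (column 7) is a score and ranked regions within a list. The deposited -log10 q-value (column 9) is the same in every called peak, and column 8 is unset. The ce10 lists were not used.

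Gene models came from Ensembl release 115 on WBcel235 and sequence from the NCBI copy of that assembly. A summit was the start of a region plus the deposited offset. Windows, ranks and nearest 5′ ends were computed in Python 3.11.15 with pandas 2.3.3, and the window assignment was checked on 200 planted regions, of which 200 were found. The named genes are the 9 themselves, the genes with the 5′ end nearest to their called summits and the 3 genes closest in rank to set-16. Other genes named are neighbours at a region or genes of the pathway lists, picked after their values were seen. F07A11.2 and gfat-1 are the same gene, and F21D5.1 is pgm-3, by the RefSeq table. Alternatives covered the window, the overlap rule, the number of strongest regions and the replicates. Ranking by column 9, and leaving out mitochondrial regions where a replicate was left out, were added after seeing the data. Peaks were deposited without read counts, so depth is unknown.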

Additional observations from a re-analysis of the deposited data

How the results depend on the processing

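The count of 2 genes with a called summit, set-16 and ogt-1, held with any base of the region in the window, with windows of 1000 or 500 bp upstream and with a promoter window alone. It was 1 with only the nearest 5′ end (ogt-1) and 1 among called peaks in the upper 50% by signal value (set-16). With the 319 strongest regions of the other replicate in place of the called list, with no IDR step, it ranged from 1 to 3 when a replicate was left out: without replicate 2, set-16 alone was found, and without replicate 1 and mitochondrial regions, ash-2 joined set-16 and ogt-1. The share of all nuclear protein-coding genes with a called summit was 1.06% with 500 bp upstream and 0.991% in the promoter window, and 1.62% to 1.68% when a replicate was left out. Of the 5 genes with a pooled region, 3 had one in the upper 50% of that list (set-16, ash-2 and ogt-1). With the 2000 strongest regions of both replicates, 4 genes were found in place of 2, ogt-1 and oga-1 being added. Of the called summits, 1 recurred in both replicates within 50 bp, that of set-16, in place of 2. The other alternatives moved no count by over 1.5 times. Ranking by column 8 was not run, since it holds no values. No paired analysis was possible because the design has 1 group. Depth was not known, so low ranks and empty windows do not show absence of binding.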

Other observations

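The place upstream of oga-1 was listed by both replicates and not by the pooled list. Of 642 regions of replicate 1 within rank 1557, the lower of the ranks at oga-1, that had a replicate 2 region within that rank and 200 bp, 3 had no pooled summit within 200 bp (0.467%), oga-1 among them. By comparison 346 of the 642 had no called summit. Whether the pooled list as supplied is complete is not known, and what left these places out of it was not tested.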
